A study of Bos taurus with 2 samples.

Results

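The pentose phosphate pathway was examined through 8 genes chosen for their roles, with earlier results of these data known: PGLS and PGD of the oxidative arm, RPIA, RPE, TKT and TALDO1 of the non-oxidative arm, and the phosphoribosyl pyrophosphate (PRPP) synthetase genes PRPS1 and PRPS2. Of these, 6 were found among the 21209 gene symbols that carry expression values, and TALDO1 and PRPS1 were not analysed here. RNA-Seq values came from 1 pool of CDKN1C-siRNA-injected bovine IVF embryos and 1 pool of Sham-injected IVF embryos, which were pierced with the injection needle as zygotes but received no siRNA. CDKN1C encodes the cyclin-dependent kinase inhibitor p57, and the pools were compared to see what its knockdown changes across the transcriptome. Each pool is a mixture of embryos whose number and sires are not given for these libraries, and the control carries no siRNA of any sequence. For its PCR measurements the study took blastocysts of each treatment group on day 8, and the paper states no stage for the sequenced pools. With 1 library in each group there is no replicate check, no p-value and no error on any value.

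The pathway branches from glycolysis at glucose 6-phosphate. Its oxidative arm makes NADPH, the reductant for lipid synthesis and for keeping glutathione reduced, and ends in ribulose 5-phosphate. The non-oxidative arm interconverts pentose phosphates with the sugars of glycolysis, and PRPP synthetases turn ribose 5-phosphate into the precursor of nucleotides. Early embryos need both products, for membranes, for redox control and for DNA and RNA.

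Most pathway genes were lower in the injected pool, and by nearly the same factor. PGLS, PGD, RPIA and TKT were 2.14-fold to 2.32-fold lower than in the sham pool, whereas RPE was 2.18-fold higher and PRPS2 was under 1 FPKM in both pools. FPKM are fragment counts scaled to transcript length and to sequencing, and the read count behind a value is unknown. The RNA was amplified before sequencing, and any effect of this on levels compared between genes was not tested. Each difference is the log2 ratio of siRNA-injected to sham embryos with 1 FPKM added to both, a scale that understates the change of weakly expressed genes. Genes whose 2 values averaged 1 FPKM or more are called expressed here, and 5 members and 7984 genes in all were. On this scale 4 of the 5 expressed members were lower by 2-fold or more and 0 of 5 were higher by as much, against 15.7% and 4.92% of the 7984 expressed genes, of which 58.3% were lower by any amount. The median difference of the 5 members was -1.18, and that of all 7984 genes was -0.17. With both pools scaled to the same total FPKM the median of all genes was 0.17, the members kept their directions, none of the 4 reached 2-fold, and the median of the members was -0.78. In pooled embryos, fewer cells of a type and less RNA per cell cannot be told apart.

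The siRNA target checked the labels. CDKN1C was 14.6 FPKM after siRNA injection and 49.5 FPKM after sham injection, a log2 difference of -1.70 that 213 of 7984 genes equalled or went below. The 11 other expressed genes within 1 Mb of CDKN1C had a median log2 difference of -1.04. Of these 11, 6 were at least 2-fold lower, against 15.7% of all expressed genes. Summed FPKM over the loci was 1.32-fold higher in the sham pool. Trophectoderm markers were present in both pools, all 12 of them expressed, with 6 lower and 6 higher in the injected pool and a median log2 difference of -0.017. Their summed level was 7736 FPKM after siRNA injection and 17645 FPKM after sham injection, most of it from the keratin genes KRT8 and KRT18, and the other 10 summed to 736 and 641 FPKM. The interferon tau genes IFNT2 and IFNT3 were the 2 trophectoderm markers higher by 2-fold or more. KRT8, KRT18 and CDX2, the last at 1.19 and 3.76 FPKM, were the 3 lower by as much. Over all expressed genes, 4.92% were higher and 15.7% lower by 2-fold or more. All 6 epiblast markers were present as well, at 144 and 277 FPKM in sum. Markers of cumulus and granulosa cells, 10 genes, summed to 13.2 and 26.3 FPKM, with FOXL2, AMH and PTX3 listed at 0 in both pools. Of the 4 expressed ones, 3 were lower and 1 higher in the injected pool. The lower ones were FSHR at 4.87 and 5.69 FPKM, STAR at 1.91 and 2.60 FPKM, and HSD3B1 at 3.29 and 15.7 FPKM. The higher one was INHBA at 3.08 and 2.05 FPKM. Most of the difference in the sum came from HSD3B1. Markers of fibroblasts, 8 genes, summed to 7.60 and 1.39 FPKM, with COL1A1 listed at 0 in both pools and DCN at 0.653 and 0.0559 FPKM. The 2 expressed ones, COL1A2 at 1.86 and 1.04 FPKM and LUM at 4.77 and 0.138 FPKM, were higher in the injected pool. LUM counted as expressed through the injected pool alone. Hypoblast markers, 6 genes, summed to 17.9 and 19.4 FPKM, most of it from GATA6 at 14.0 and 13.7 FPKM. SOX17, of this list, was at 0 in both pools too. Of the 3 expressed ones, GATA6 and PDGFRA, the latter at 2.58 and 1.82 FPKM, were higher in the injected pool. HNF4A, at 1.16 and 3.78 FPKM, was lower by 2-fold or more. Oocyte markers, 8 listed and 7 found, summed to 46.6 and 85.7 FPKM. The 2 expressed ones, ZP3 at 9.39 and 23.7 FPKM and OOEP at 36.6 and 61.0 FPKM, were lower in the injected pool. Over all expressed genes, 58.3% were lower by any amount. The part of these marker differences in the pathway values was not tested.

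**Figure D1:**
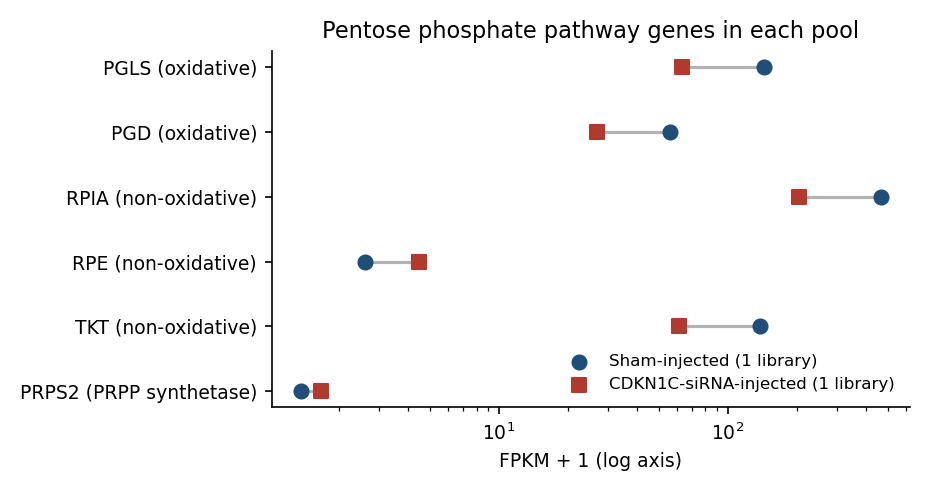
Expression as FPKM + 1 (horizontal, log axis) of 6 pathway genes, with blue circles for the Sham-injected and red squares for the CDKN1C-siRNA-injected library and no error bars. The red squares lie to the left by a like distance for PGLS, PGD, RPIA and TKT and to the right for RPE and PRPS2.

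In the oxidative arm, PGLS encodes 6-phosphogluconolactonase, which opens the lactone made by the first oxidation. It lies on chromosome 7 of bosTau7 at chr7:5554149-5562698, and was 61.9 FPKM after siRNA injection and 143 FPKM after sham injection. The injected pool thus held 43.1% of the sham level, with a log2 difference of -1.20, and 10.1% of the 7984 genes were as low or lower. PGD encodes 6-phosphogluconate dehydrogenase, which makes NADPH and releases carbon dioxide to give ribulose 5-phosphate. At chr16:40078395-40093121 it was 25.7 FPKM after siRNA injection and 55.0 FPKM after sham injection, 46.8% of the sham level, with a log2 difference of -1.07. The sum of the 2 genes was 87.6 FPKM after siRNA injection and 198 FPKM after sham injection, a fold of 2.27.

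In the non-oxidative arm, RPIA encodes ribose 5-phosphate isomerase, which turns ribulose 5-phosphate into the ribose 5-phosphate of nucleotides. It was by far the most abundant member, at 203 FPKM after siRNA injection and 465 FPKM after sham injection. These values placed it 435th and 302nd among the 21209 symbols ranked by FPKM in each pool. The log2 difference of RPIA, at chr11:49126255-49160855, was -1.19. TKT encodes transketolase, which moves carbon units between sugar phosphates and returns pentoses to glycolysis. At chr22:48608249-48631747 it was 60.3 FPKM after siRNA injection and 137 FPKM after sham injection, with a log2 difference of -1.18.

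RPE stood apart from the other members. It encodes ribulose phosphate 3-epimerase, which makes the xylulose 5-phosphate that transketolase uses, and shares its substrate with RPIA. RPE, at chr2:102138163-102159388, was 3.51 FPKM after siRNA injection and 1.61 FPKM after sham injection. Its log2 difference was 0.79, and 8.76% of the 7984 genes were as high or higher. It was the least abundant of the 5 expressed members, so its ratio rests on low values, and it passed 2-fold with 0.1 FPKM added in place of 1 (log2 difference 1.08) and with the same total FPKM in both pools (1.07).

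The 3 non-oxidative genes summed to 267 FPKM after siRNA injection and 604 FPKM after sham injection, a fold of 2.26 against 2.27 for the oxidative arm. The oxidative arm made up 24.7% of the members' summed FPKM in both pools, and the non-oxidative arm 75.2% in each. These shares leave out TALDO1, the transaldolase gene, and RPIA alone held 57.2% and 57.9% of the sum. The balance between the arms therefore differed little between the pools, in a measure that does not depend on how the pools are scaled.

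**Figure D2:**
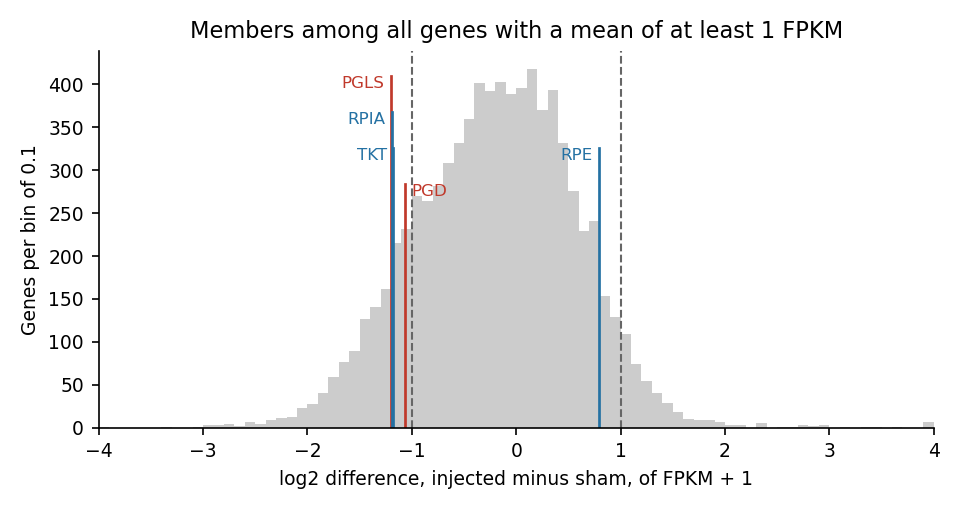
Number of genes (vertical) in bins of 0.1 of the log2 difference, injected minus sham, of FPKM + 1 (horizontal), for the 7984 expressed genes, values beyond the axis being placed in the end bins. Red lines mark the oxidative and blue lines the non-oxidative members, whose heights carry no value, and PGLS, RPIA, TKT and PGD lie left of the dashed 2-fold line while RPE lies at 0.79.

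Ratios between enzymes within a pool changed little for these 4 genes. RPIA was 3.29 times PGLS in the injected pool and 3.24 times in the sham pool, and it was 3.37 and 3.38 times TKT. PGLS and TKT were close to each other in both pools, at ratios of 1.03 and 1.04, and no spread is known by which to order them. PGLS was 2.40 times PGD in the injected pool and 2.61 times in the sham pool. Ratios to RPE changed most, including that between the 2 enzymes that compete for ribulose 5-phosphate, since RPIA was 57.9 times RPE in the injected pool and 289 times in the sham pool. The order of levels, RPIA, PGLS, TKT, PGD, RPE and PRPS2 from highest to lowest, was the same in both pools.

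PRPS2, at chrX:82151280-82173181, was 0.671 FPKM after siRNA injection and 0.365 FPKM after sham injection, and its mean did not reach 1 FPKM. It was 8560th and 9818th of 21209 symbols by level. The related gene PRPS1L1 was listed at 0 in both pools. The regulatory partners of PRPP synthetase were higher in level and went apart: PRPSAP1 was 13.5 FPKM after siRNA injection and 23.5 FPKM after sham injection, and PRPSAP2 was 4.46 against 2.86 FPKM. The transketolase-like genes TKTL1 and TKTL2, named after their values were seen, were under 0.3 FPKM in both pools.

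Of 16 symbols listed as other genes of the pathway, 13 were found and 9 were expressed. Of the 9, 2 were lower by 2-fold or more and 0 were higher by as much, against 15.7% and 4.92% of all expressed genes. The median log2 difference of the 9 was -0.47. SHPK, the sedoheptulose kinase gene, was 5.98 FPKM after siRNA injection and 19.4 FPKM after sham injection. H6PD, whose enzyme carries out the opening oxidative steps in the endoplasmic reticulum, was 0.363 against 1.78 FPKM, so that it counted as expressed through the sham pool. PGM1, a phosphoglucomutase gene, was 10.9 against 22.3 FPKM, and RBKS, the ribokinase gene, 8.24 against 11.8 FPKM. C5H12orf5, the symbol used here for the gene of the fructose bisphosphatase TIGAR, was 3.54 against 4.86 FPKM. DERA, the deoxyribose phosphate aldolase gene, and PGM2 were slightly higher with siRNA, at 6.55 against 5.30 FPKM and 1.24 against 1.13 FPKM.

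The glycolytic and gluconeogenic genes that the pathway shares were lower as well. All 6 expressed ones were lower in the injected pool, 3 of them by 2-fold or more, against 58.3% and 15.7% of all expressed genes. The median log2 difference of the 6 was -1.23, and FBP1 among them counted as expressed through the sham pool alone. The isomerase gene GPI, which handles the entry sugar of the pathway, had a log2 difference of -1.69, PFKL one of -1.82 and ALDOA one of -1.79. ALDOC was 4.42 FPKM after siRNA injection and 8.24 FPKM after sham injection, FBP1 was 0.877 against 1.44 FPKM and FBP2 1.05 against 1.93 FPKM. The study picked out GPI and PFKL on these same libraries, and their direction cannot count as separate evidence.

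Genes of purine and pyrimidine synthesis, of which some use PRPP, did not all share one direction. Of 10 genes of purine synthesis from PRPP, 6 were lower and 4 higher in the injected pool, close to the 58.3% of all expressed genes that were lower. Among them 1 was lower by 2-fold or more and 0 were higher by as much, against 15.7% and 4.92% of all expressed genes. The median log2 difference of the 10 was -0.31. GART, higher at 1.46 against 0.921 FPKM, counted as expressed through the injected pool alone. APRT, which salvages adenine with PRPP, was lowest at 39.0 against 106 FPKM, at a locus that another symbol shares, and ADSS, an adenylosuccinate synthetase gene, was highest at 12.5 against 6.83 FPKM. All 6 pyrimidine genes were lower, against 58.3% of all expressed genes, with a median of -0.66. The 1 of them lower by 2-fold or more is near the 15.7% of all expressed genes. CAD, of this list, counted as expressed through the sham pool alone. In the same list UCK1, a uridine kinase gene, was 4.97 against 14.6 FPKM, and UCK2, its relative, was 12.1 against 13.0 FPKM.

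The lists of other NADPH producers and of NADPH-using reductases went both ways. Of 7 genes listed as other NADPH producers, 4 were higher in the injected pool. The median log2 difference was 0.086, that of ALDH1L2. Among those higher, ME2 at 1.60 against 0.972 FPKM and ALDH1L2 at 1.08 against 0.957 FPKM counted as expressed through the injected pool alone. NADK, also in this list, encodes a kinase that makes NADP+ and not NADPH, and was 12.1 against 14.0 FPKM. IDH1, the cytosolic isocitrate dehydrogenase gene, was 117 FPKM after siRNA injection and 60.8 FPKM after sham injection, while MTHFD1, of folate metabolism, was 93.2 against 189 FPKM and the 1 gene of this list at least 2-fold lower. Over all expressed genes, 15.7% were lower and 4.92% higher by 2-fold or more, and 58.3% were lower by any amount. Of 9 genes listed as NADPH-using reductases, 5 were lower and 4 higher, with a median of -0.44. The list includes CYB5R3, lower at 49.1 against 76.2 FPKM, whose enzyme mainly uses NADH. Of the 9, 1 was higher by 2-fold or more and 0 were lower by as much. The higher one was TXNRD1, thioredoxin reductase, at 18.0 against 7.32 FPKM, at a locus that another symbol shares, and the lowest of the list was AKR1A1, an aldehyde reductase gene, at 28.1 against 49.7 FPKM.

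**Figure D3:**
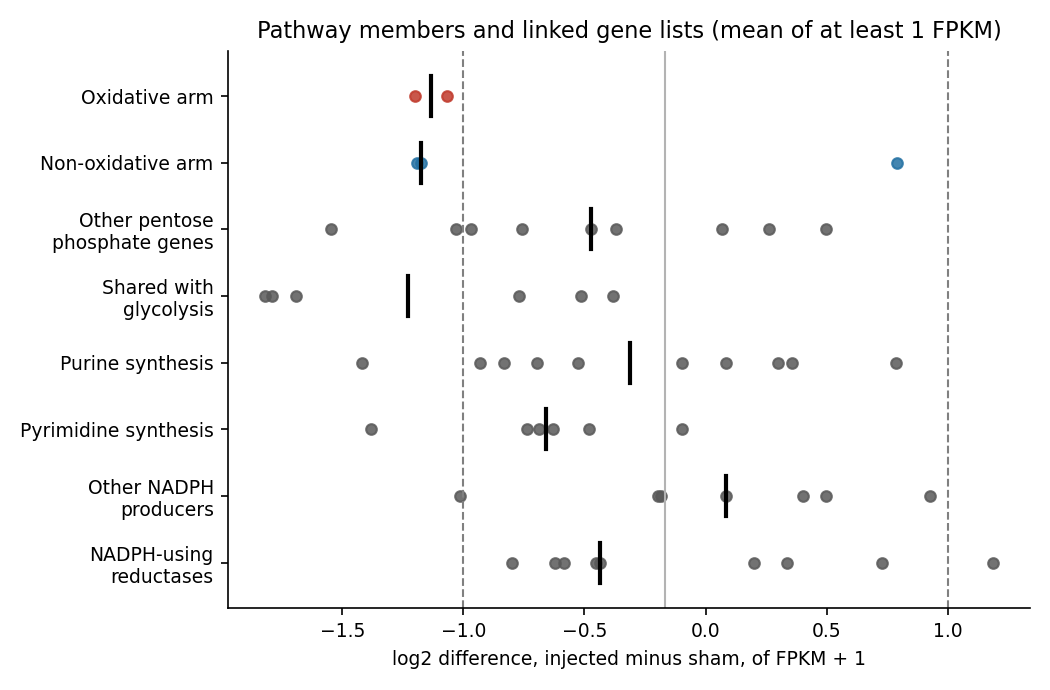
Log2 difference, injected minus sham, of FPKM + 1 (horizontal) of each expressed gene in 8 gene lists (vertical); points are genes, black bars list medians, dashed lines 2-fold and the grey line the median of all 7984 genes, -0.17. The medians of both arms and of the genes shared with glycolysis lie below -1, and that of other NADPH producers is 0.086.

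Abundant genes were lower in the injected pool more broadly, and this bears on the size of the members' differences. Among the 1398 genes with a mean at least that of PGD, the median log2 difference was -0.41 and 20.7% were at least 2-fold lower. The 500 genes nearest to each member in mean FPKM had medians of -0.44 for PGLS, -0.32 for PGD, -0.46 for RPIA, -0.43 for TKT and 0.0038 for RPE. Relative to these neighbors in level, the differences of PGLS, PGD, RPIA and TKT ranged from -0.76 to -0.73, all under 2-fold, and that of RPE was 0.79.

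The members lie on 6 chromosomes, so they do not share a genomic neighborhood. PGLS sits among many genes, with 50 other loci within 1 Mb, and the 30 expressed genes there had a median log2 difference of -0.48. Around PGD the median of 12 such genes was 0.13, around RPIA that of 8 genes was -0.033 and around TKT that of 21 genes was -0.077. RPE had 9 other loci within 1 Mb and 1 expressed gene, with a log2 difference of 1.06 beside 0.79 for RPE itself, and 5 expressed genes around PRPS2 had a median of 0.47. The median of the neighbors had the sign of the member for all but PGD, and was within 0.1 of 0 for RPIA and TKT.

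Among all genes, those nearest to PGLS in both log2 values were TKT, at a distance of 0.071, C19H17orf81 at 63.3 against 150.1 FPKM and PUF60 at 59.1 against 148 FPKM. For RPE the nearest were KIF11 at 3.52 against 1.58 FPKM, KHDRBS1 at 3.48 against 1.65 FPKM and AMIGO2 at 3.46 against 1.66 FPKM. Likeness over 2 libraries is only a shared pair of levels.

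**Figure D4:**
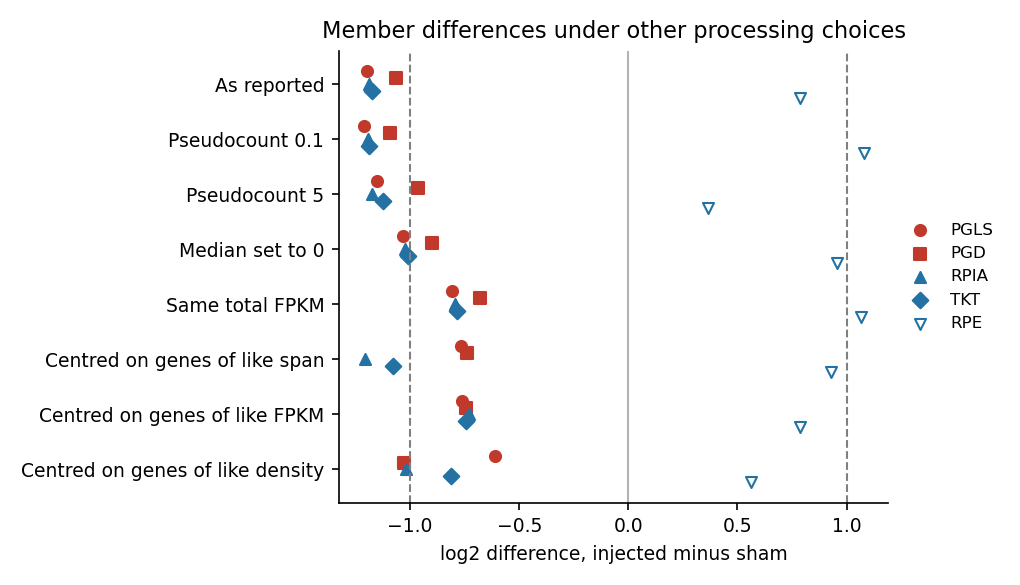
Log2 difference, injected minus sham (horizontal), of PGLS, PGD, RPIA, TKT and RPE under 8 processing choices (vertical), with dashed lines at 2-fold. The 4 lower members stay left of 0 under every choice shown and lie between -0.81 and -0.68 with the same total FPKM, and RPE stays right of 0.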

How the data were processed

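RNA of each embryo pool was amplified and sequenced by the authors, who aligned reads with TopHat to the bosTau7 genome and used Cufflinks 2.0.2 for abundance. The deposited FPKM values are upper-quartile normalized and corrected for sequence bias by the authors. The gene annotation is not given in the sources used here. No read counts are given, so depth and precision are unknown. Each pool has 22220 loci, of which 615 without a symbol were left out, and loci of 1 symbol were summed to 21209 symbols. Sequences of the members were not used here. The study's tests used Cuffdiff, which was not rerun, and with 1 library per group no test was made.

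Differences are log2 of injected over sham FPKM after adding 1, for 7984 expressed genes (mean FPKM of 1 or more), and 2-fold on this scale was counted. The script that applies this 2-fold rule was tested on simulated data. All members were named, with every gene of the 2 lists nearest to the pathway that reached this mean, the highest and lowest of each other metabolic list, and the 3 genes nearest to the lowest and to the highest member. Further genes of these lists were named where they limit how a list reads. The members and lists were chosen with earlier results of these data known. Alternatives were other pseudocounts, filters, fold cutoffs and scalings, the highest locus in place of the sum, and centering on the 500 genes nearest in locus span or mean FPKM. Python 3.11.15, pandas 2.3.3, NumPy 2.4.6 and matplotlib 3.10.9 were used.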

Additional observations from a re-analysis of the deposited data

How the results depend on the processing

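Every member difference kept its direction under each alternative run, and most limits concern size. With the same total FPKM in both pools, 0 members were at least 2-fold lower and 1, RPE, at least 2-fold higher, the median of the members was -0.78, and the oxidative and non-oxidative arms were at -0.78 each; among all genes 587 were then lower and 963 higher, against 1255 and 393 as reported. Centering on the 500 genes nearest in mean FPKM gave 0 members at least 2-fold lower, a median of -0.74, and arms at -0.77 and -0.72. Centering on the genes nearest in locus span gave 2 members, RPIA and TKT, and a median of -0.77. The oxidative arm was then at -0.77 and the non-oxidative arm at -1.16. Centering on the genes nearest in number of loci within 1 Mb, chosen after seeing the data, gave 2 members, RPIA and PGD, a median of -0.81 and arms at -0.74 and -0.96. By construction, each centering subtracts the median of the nearest genes. PGD alone fell under 2-fold with 5 FPKM added, at -0.97, and with the median of all genes set to 0, at -0.90. RPE was the 1 member at least 2-fold higher with 0.1 FPKM added and at a cutoff of 1.5-fold, and at 4-fold 0 members were lower.

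Counts over all genes at least 2-fold higher were 692 and 119 with 0.1 and 5 FPKM added, 227 at a mean of at least 5 FPKM, 616 with the median set to 0, and 606 and 640 when centered by span and by mean FPKM. Those lower were 598 with 5 FPKM added, and 710 and 593 when centered by span and by number of loci. At cutoffs of 1.5-fold and 4-fold, 1186 and 33 genes were higher and 2436 and 84 lower. CDKN1C kept a difference past 2-fold under each alternative run for it. No paired analysis was possible because each group has 1 library. RPE and PRPS2 did not reach a mean of 5 FPKM. How far the pools' differences exceed the spread between embryo pools, or the error from read counts, cannot be known from 1 library per group.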
